A study of Mus musculus with 125 samples.

Results

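Wnt/β-catenin target genes were followed in the endothelium of the brain and retina, the barrier vessels of the mouse. The set holds 8 genes, Lef1, Tcf7, Axin2, Apcdd1, Nkd1, Notum, Tnfrsf19 and Spock2. They were chosen by name as genes that respond to Wnt in these vessels, with earlier results of these data known. All 8 had values in both assays used here: open chromatin, where they are 8 of 21178 genes tested, and single-cell RNA of the brain, where they are 8 of 27998 genes listed.

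In canonical Wnt signalling a Wnt ligand binds a Frizzled receptor and an Lrp co-receptor. β-catenin is then spared from the destruction complex, enters the nucleus and joins the factors of the LEF/TCF family on DNA. Endothelial cells of the brain and retina depend on this pathway, driven by Wnt7a and Wnt7b in the brain and by norrin in the retina, to form tight, selective vessels. Vessels of heart, kidney, liver and lung build no such barrier. Several direct targets are themselves parts or brakes of the pathway. Lef1 and Tcf7 encode DNA-binding partners of β-catenin. Axin2 encodes a scaffold of the destruction complex, Apcdd1 a membrane protein that inhibits Wnt, Nkd1 an inhibitor that binds Dishevelled, and Notum a secreted enzyme that strips the lipid from Wnt. Tnfrsf19, also called Troy, encodes a receptor of the tumour necrosis factor family, and Spock2 encodes testican-2, a proteoglycan of the extracellular matrix.

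The series has 66 samples for ATAC-seq (which marks open chromatin), 54 for bulk RNA-seq, not analysed here, and 5 for 10x single-cell RNA-seq. Each ATAC-seq preparation of fresh tissue is labelled either endothelial or input. All mice of this assay received tamoxifen at 0.015 mg per kg, which turned on a GFP reporter in vessels, and only GFP-positive tissue was processed. The Cre driver, the mouse line and the way labelled nuclei were separated are not given in the sources used here. Dams were injected at E10.5 for embryos taken at E12.5 (labelled E12). Pups were injected at P1 and P3. Their label reads P6, while the protocol places collection at P7. Adults were 2 months old and were injected 7 days before isolation.

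Endothelial libraries of adult mice number 2 each for brain, retina, heart, kidney, liver and lung. At P6 there are 3 each for brain and retina and 2 each for heart, kidney, liver and lung. At E12 there are 3 for brain, 4 for heart and 4 for trunk. The barrier group is brain and retina (brain alone at E12), and the peripheral group is heart, kidney, liver and lung (heart and trunk at E12). The 5 single-cell libraries come from the brain, 1 per age (3 embryonic days, E9.5, E12.5 and E16.5, then P8 and adult), with cells enriched on beads against CD31 (Pecam1). The embryonic ones are whole brain and the later ones are cortex dissociated with another kit, so tissue and method cannot be told apart from age at the step from E16.5 to P8. No label says that replicates came from separate animals, and the p-values below measure only the spread between these samples.

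ATAC-seq lists held 19464 to 144197 peaks from 10.1 to 59.1 M (mega) tags. Adult barrier endothelial lists held 38465 to 45276 peaks and adult peripheral ones 19464 to 47334. P6 barrier lists held 27160 to 92863 and P6 peripheral ones 43882 to 76326. The 27160 peaks are those of brain replicate 1, against 87133 and 79903 in the other P6 brain endothelial libraries. Of 6 endothelial marker genes (Cdh5, Pecam1, Egfl7, Esam, Tie1, Kdr), 5 at adult, 6 at P6 and 5 at E12 had more peak signal in barrier endothelial libraries than in input of the same organs, as the label requires. In the single-cell libraries, 23709 of 42340 barcodes carried at least 3 of these 6 markers and passed the filters, and these are called endothelial below. They number 5644, 6347, 3786, 4778 and 3154 from E9.5 to adult, with a median of 4896 to 10469 UMIs (counted molecules) each. The E12.5 and E16.5 libraries share 50 barcodes, 35 of them endothelial in both, and any other pair shares at most 31.

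The following stretches of promoter are shown because at these starts the share of libraries with a peak differed between barrier and peripheral endothelium at some ages, given below, and because they hold the LEF/TCF core motif. They are the 250 bases before a RefSeq start, on the strand of the gene, from assembly GRCm38.p6: Spock2 at chr10:60106007-60106256 (plus strand), the inner start of Tnfrsf19 at chr14:61037988-61038237 (minus strand) and an inner start of Lef1 at chr3:131156044-131156293 (plus strand). Capitals mark CTTTGA or its reverse complement TCAAAG.

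Spock2: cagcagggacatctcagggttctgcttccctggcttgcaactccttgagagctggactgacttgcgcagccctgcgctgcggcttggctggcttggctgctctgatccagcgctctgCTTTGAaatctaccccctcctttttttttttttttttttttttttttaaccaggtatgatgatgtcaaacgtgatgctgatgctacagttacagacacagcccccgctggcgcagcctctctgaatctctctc
Tnfrsf19: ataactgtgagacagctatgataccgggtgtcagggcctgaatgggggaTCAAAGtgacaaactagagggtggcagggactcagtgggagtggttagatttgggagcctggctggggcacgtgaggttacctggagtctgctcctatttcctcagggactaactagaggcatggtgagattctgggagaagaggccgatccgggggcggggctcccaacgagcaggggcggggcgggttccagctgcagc
Lef1: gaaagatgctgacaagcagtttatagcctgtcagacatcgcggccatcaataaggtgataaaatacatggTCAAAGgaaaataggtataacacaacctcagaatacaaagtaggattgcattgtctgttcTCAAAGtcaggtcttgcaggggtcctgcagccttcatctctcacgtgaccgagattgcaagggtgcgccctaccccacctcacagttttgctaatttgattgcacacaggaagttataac

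The first match lies 133 bases before the start in Spock2, 201 before it in Tnfrsf19 and 180 before it in Lef1. The RefSeq table held promoters of 6 of the 8 genes, without Apcdd1 and Notum. Of 11 such windows 3 (27.3%) held the motif on either strand, against 4544 of 32851 windows of all genes (13.8%). A match is a description of the letters and not a binding site.

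In brain endothelial barcodes the RNA of all 8 genes was low at E9.5, and each was more than 2-fold higher at E12.5. Levels are UMIs per 1000000 of all UMIs in the endothelial barcodes of a library (CPM), with exact Poisson 95% intervals that cover counting error only. With 1 library per age there is no replicate and no test. A gene is called higher or lower between 2 libraries where the ratio is at least 2-fold and the intervals do not overlap. From E9.5 to E12.5 this held for 8 of 8 genes upward, against 22.9% of the 14193 genes with at least 20 UMIs in either library. Notum had fewer than 20 UMIs in either library, and so was not considered, under 2 alternatives. These were leaving out barcodes with markers of another cell type (log2 ratio 4.14) and thinning barcodes to 1000 UMIs (1.83). The other 7 genes were called higher under both. Summed over the 8 genes the level was 56.9, 397, 1055, 1518 and 3347 CPM in order of age, from E9.5 to adult. Spock2 alone made up 2292 of the adult and 864 of the P8 sum.

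Among the DNA-binding factors, Lef1 stood at 27.8, 80.7, 129.6 and 186 CPM in the libraries from E9.5 to P8 and at 539 (529 to 548) in the adult. It was highest in the adult library, and no 2 of its intervals overlap. The adult level was 2.89-fold that at P8 (95% interval 2.82 to 2.96). Tcf7 stood at 9.18, 39.2, 66.1, 94.99 and 83.1 CPM in the same order of ages. Its level was highest at P8 and not in the adult, where it was 0.875 of the P8 value (0.830 to 0.921). From E9.5 to E12.5 the ratio was 2.90 for Lef1 and 4.27 for Tcf7.

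The 4 inhibitors followed different courses after E12.5. Axin2, the feedback scaffold, stood at 2.80, 9.54, 28.6, 38.1 and 126 CPM from E9.5 to adult, so that it was called higher at 3 of the 4 steps between neighbouring ages. Its adult level was 3.30-fold that at P8 (3.12 to 3.49). Apcdd1 stood at 1.01, 4.73, 8.68, 55.6 and 33.5 CPM. Of the 8 genes it alone was called higher from E16.5 to P8, by 6.41-fold (5.75 to 7.15), against 14.4% of genes, while under 3 other filters or depths of barcodes Spock2 passed at that step too. The adult level of Apcdd1 was 0.603 of that at P8. Nkd1 stood at 9.22, 98.6, 168, 109 and 124 CPM, highest at E16.5. Its adult level was 1.26-fold that at E12.5 (1.21 to 1.32), and it was the only one of the 8 genes not called higher between these ages, where 28.1% of genes were. With median-ratio scaling Tcf7 was not called either, at a log2 ratio of 0.95. Notum rested on 2 UMIs at E9.5 and stood at 3.02, 99.4, 57.3 and 55.3 CPM at the later ages. From E12.5 to E16.5 its ratio was 32.9 (28.9 to 37.6). From E9.5 to E12.5 it was 69.2, with an interval of 18.9 to 574 that shows how little the 2 UMIs fix it.

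The receptor gene Tnfrsf19 stood at 6.71, 26.8, 92.0, 112 and 93.7 CPM from E9.5 to adult. It was called higher at the first and the second step and then stayed within 1.22-fold of its neighbour in either direction. The proteoglycan gene Spock2 had 8 UMIs in 5644 endothelial barcodes at E9.5, a level of 0.175 CPM (0.0755 to 0.345), and then stood at 135, 462, 864 and 2292 CPM. Its ratio from E9.5 to E12.5 was 769 (390 to 1783), and the adult level was 17.0-fold that at E12.5. At the second step 4 of the 8 genes were called higher (Axin2, Notum, Tnfrsf19 and Spock2; background 10.1%) and at the last step 3 (Lef1, Axin2 and Spock2; background 16.2%). Without barcodes that held markers of another cell type Nkd1 passed at the second step too, at a log2 ratio of 1.16. None of the 8 was called lower at any step, where 9.91 to 13.5% of genes were. With at most 5% mitochondrial UMIs Apcdd1 was called lower at the last step, at a log2 ratio of -1.18.

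**Figure D1:**
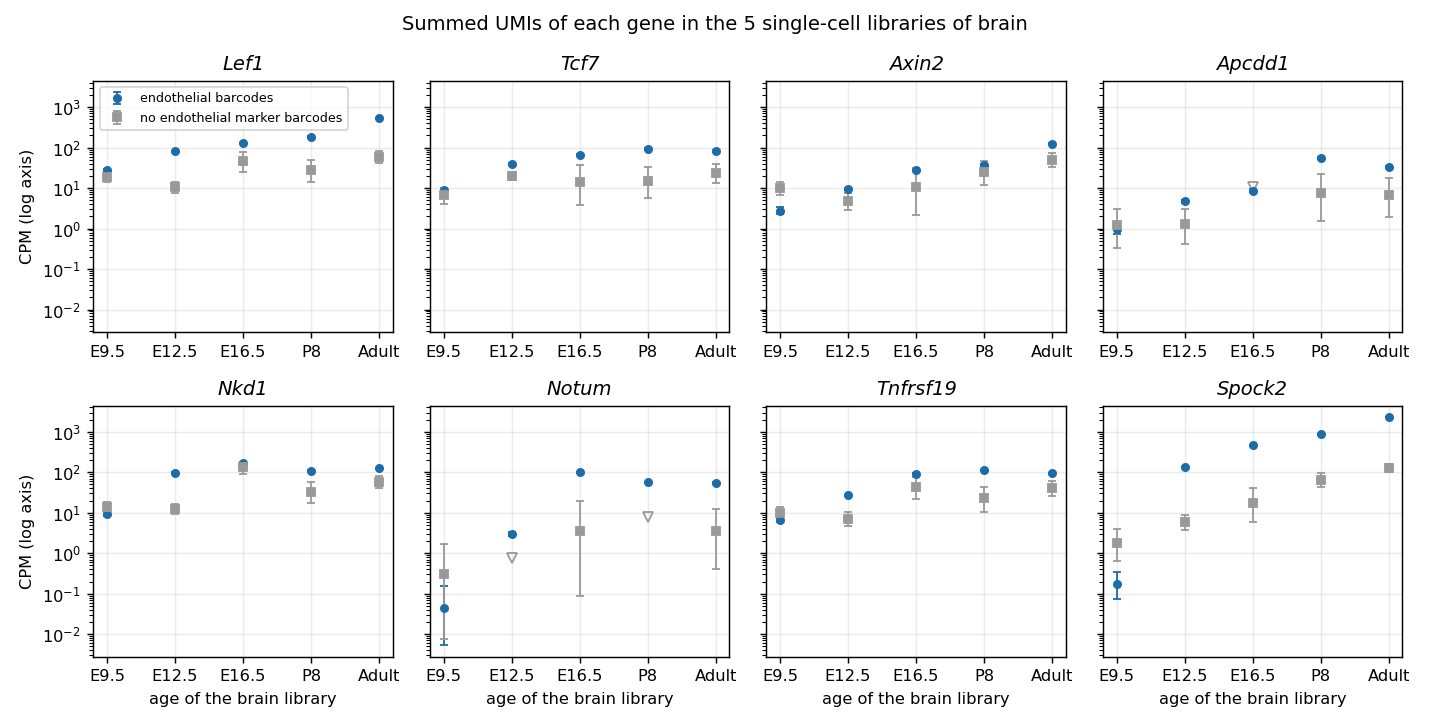
RNA of the 8 genes in the 5 single-cell brain libraries, in UMIs per 1000000 (log axis) against age. Blue circles are endothelial barcodes, grey squares are barcodes of the same library with none of the 6 endothelial markers, bars are exact Poisson 95% intervals, and open triangles mark the floor of 3 counts where no UMI was seen. Every endothelial level at E12.5 lies above that at E9.5, Lef1, Axin2 and Spock2 go on to their highest level in the adult, and Nkd1 and Notum are highest at E16.5.

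The share of endothelial barcodes with these transcripts was also counted. After each barcode was thinned to 1000 UMIs, 5.42, 26.8, 57.9, 75.4 and 92.8% held at least 1 of the 8 genes, in order of age. At least 3 of the genes were seen together in 0.993, 4.86, 8.57 and 22.4% of the thinned barcodes, in order of age from E12.5. For Spock2 the thinned share was 10.54% at E12.5 and 85.3% in the adult, against 37.6% and 98.2% before thinning. For Lef1 it was 2.70% at E9.5, 7.80%, 11.9% and 17.3% at the ages between, and 42.1% in the adult, against 17.8% at E9.5 and 88.3% in the adult before thinning. The shares of other genes did not all go on rising. Thinned, Apcdd1 went from 6.28% at P8 to 3.52% in the adult and Tcf7 from 8.95% to 8.62%. Notum stood at 9.17% at E16.5, 5.67% at P8 and 6.56% in the adult, and Nkd1 at 14.2, 9.52 and 12.4%.

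Levels were also taken in barcodes of the same library with none of the 6 endothelial markers. These were shallower at every age, with median UMI counts from 1247 against 8468 at P8 to 6496.5 against 10469 at E12.5, and whether they hold endothelial cells with missed markers was not tested. In the adult all 8 genes were called higher in endothelial barcodes, against 9.60% of genes. Spock2 stood at 2292 CPM there against 131 in the 176 marker-free barcodes, Lef1 at 539 against 60.4, Notum at 55.3 against 3.45 and Apcdd1 at 33.5 against 6.91. The smallest contrasts were Nkd1 at 124 against 58.7 and Tnfrsf19 at 93.7 against 41.4. Spock2 was detected in 98.2% of endothelial and 19.9% of marker-free barcodes, at median depths of 4896 and 2463.5 UMIs. At P8 7 genes were called higher (background 8.00%), all but Axin2, at 38.1 against 25.5 CPM. At E16.5, with only 51 marker-free barcodes, it was 5 (background 10.9%): Lef1, Tcf7, Notum, Tnfrsf19 and Spock2. Tnfrsf19 was lost there with a minimum of 500 genes per barcode. At E12.5 it was 6 (background 18.2%), without Tcf7 at 39.2 against 19.96 CPM and Axin2 at 9.54 against 4.92.

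At E9.5 none of the 8 genes was called higher in endothelial barcodes, against 6.11% of genes. Axin2 was called lower there, at 2.80 CPM against 9.91 (6.82 to 13.9) in 1118 marker-free barcodes, as were 1151 of all 12790 genes considered. Tnfrsf19 stood at 6.71 against 9.91 CPM and Nkd1 at 9.22 against 13.8. Lef1 lay the other way, at 27.8 CPM (26.3 to 29.4) against 18.9 (14.5 to 24.2), so its intervals did not overlap but the ratio was short of 2-fold. Tcf7 stood at 9.18 against 6.60 CPM, with overlapping intervals.

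Markers of other cell types were present in the endothelial barcodes and moved with age. Their summed level went from 158 CPM at E9.5 to 88.5, 179, 657 and 1723 for 7 pericyte and smooth muscle genes, and from 2339 to 12704, 5403, 4979 and 3297 for 5 erythroid genes. The 5 astrocyte genes stayed between 2.85 and 19.9 CPM, and the 6 endothelial markers between 1907 and 3888. At E12.5 90.3% of endothelial barcodes held at least 2 markers of another type, and at the other ages 23.4 to 63.5% did. Without such barcodes the counts against marker-free barcodes were the same at 4 ages, and at E12.5 it was 5 genes, with Tcf7 added and without Apcdd1 and Notum. Notum had too few UMIs there to be considered.

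Within the adult brain endothelium 4 of the 8 genes, Nkd1, Apcdd1, Lef1 and Spock2, had arterial and venous intervals that did not overlap. How many of all genes differ in this way was not counted, so the 4 of 8 is a description. Barcodes with at least 2 markers of one vessel list and none of the other lists gave 211 arterial and 556 venous barcodes, and 2385 fell in neither class nor among tip cells. Nkd1 stood at 191.9 CPM (179 to 205) in venous barcodes, 87.8 (70.8 to 108) in arterial ones and 109.6 (105 to 115) in the remaining ones. Apcdd1 was likewise highest in venous barcodes, at 51.2 CPM against 25.8 and 29.5. Lef1 stood at 669 CPM in venous, 552 in arterial and 505 in remaining barcodes. Spock2 had the opposite order of vein and artery, with 3091 CPM (2985 to 3199) in arterial, 2578 in venous and 2173 in remaining barcodes.

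Axin2 stood at 157 CPM (134 to 183) in adult arterial, 135 (124 to 146) in venous and 122 in remaining barcodes, and the first pair of these intervals overlap. The same holds for Tnfrsf19, at 114 CPM (94.9 to 137) against 106 (96.3 to 116), for Tcf7, at 76.3 (60.5 to 95.002) against 98.2 (89.2 to 107.8), and for Notum, at 61.1 (47.0 to 78.0) against 55.9 (49.2 to 63.3). At P8, with 55 arterial and 165 venous barcodes, Spock2 was again higher in arterial ones, at 1149 CPM (1025 to 1285) against 626 (588 to 665), and Nkd1 stood at 92.7 CPM (59.98 to 137) against 135 (118 to 154). At E12.5 Nkd1 stood at 19.1 CPM (11.7 to 29.5) in 137 tip-like barcodes, 51.7 (38.4 to 68.2) in venous, 55.3 (30.9 to 91.1) in arterial and 100.4 in the remaining ones. Spock2 stood at 23.9 CPM (15.5 to 35.3) in tip-like, 39.3 (27.8 to 53.9) in venous, 84.7 (53.7 to 127) in arterial and 137 in the remaining ones. All 3 vessel classes thus lay below the remaining barcodes for both genes. For Lef1 the interval of the tip-like barcodes, 60.6 to 95.2 around 76.5 CPM, held the 80.9 of the remaining ones. So did that of the venous ones, 63.8 to 101 around 80.7 CPM. The arterial barcodes lay below, at 25.8 CPM (10.4 to 53.1) from 7 UMIs.

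The other genes of the pathway were followed in 4 fixed groups. The group called receptor genes also holds co-receptors and the ligand genes (Wnt7a, Wnt7b and that of norrin). From E9.5 to E12.5, 13 of 16 other targets and barrier outputs were called higher and none lower, and so were 7 of 10 feedback genes and antagonists with enough UMIs, with 1 lower. Of 9 receptor genes 2 were called higher and 1 lower, and of 14 transduction genes 0 were higher and 1 lower, where 22.9% of all genes were higher and 11.8% lower. On the log2 scale the ratio was 9.16 for Mfsd2a, a lipid transporter of the barrier, 7.40 for the thyroid hormone transporter Slco1c1 and 6.65 for the transcription factor Foxf2. Among the feedback genes and antagonists it was 4.36 for the antagonist Dkk2, 4.14 for the antagonist Wif1 and -2.50 for Lgr5, which is not an antagonist.

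From P8 to adult 16.2% of all genes were higher and 13.5% lower. Of 8 receptor genes 5 were called higher, with log2 ratios of 2.59 for Reck, 2.14 for Lrp5 and 1.80 for Fzd4, and of 14 transduction genes 4 were. Of the 16 outputs 4 were higher, led by the glucose transporter Slc2a1 at 2.65, and 5 were lower, led by Fgfbp1 at -5.24, Myc at -3.75 and the fenestration gene Plvap at -2.997. Of 9 feedback genes and antagonists 1 was higher, the Nkd1 relative Nkd2 at 1.205, and 1 lower, the secreted Wnt inhibitor Wif1 at -5.12.

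Open chromatin around the same genes was then compared between barrier and peripheral endothelium. The measure is the peak signal within a gene and 50 kb on either side: the authors' mean pileup of each peak times the bases it covers there, in parts per 1000000 (ppm) of all such signal of the library. It was tested with limma on log2(ppm + 5), and p-values were adjusted by the Benjamini-Hochberg method over 21178 genes. Because the window holds neighbouring genes too, a peak in it need not act on the member. In bulk nuclei fewer cells of a type and less signal per cell cannot be told apart.

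In the adult, 7 of the 8 genes had more peak signal in barrier than in peripheral endothelium, and Nkd1 did not pass. Of all genes 33.2% were called higher by the same test and 45.5% in either direction, so many genes besides these moved. At P6 5 genes passed (Lef1, Axin2, Apcdd1, Tnfrsf19 and Spock2), against 27.2% of genes upward and 40.0% in either direction. At E12 3 passed (Lef1, Axin2 and Apcdd1), against 0.425% upward and 0.916% in either direction. The median log2 difference over all genes was 0.17 in the adult, 0.10 at P6 and -0.015 at E12. Of the genes called in either direction, 72.9% were higher in barrier endothelium in the adult, but 98.1% with signal scaled to all tags and 54.1% after quantile scaling. At P6 these shares were 68.0, 90.5 and 55.1%, and at E12 46.4, 75.4 and 53.1%.

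Lef1 lies at chr3:131110297-131224357. Adult brain endothelial libraries held 199 and 270.2 ppm and retina ones 179 and 136. Heart held 51.8 and 54.2 ppm, kidney 92.1 and 132, liver 79.6 and 89.3, and lung 53.7 and 15.2. Every barrier library lay above every peripheral one, with adult kidney 2 the nearest. The log2 difference was 1.54 (SE 0.17, adjusted p = 7.06e-10). At P6 the 6 barrier libraries held 169 to 252 ppm (median 184) and the 8 peripheral ones 50.0 to 124 (median 74.8), again without overlap, with a log2 difference of 1.23 (SE 0.15, adjusted p = 1.39e-08). At E12 brain libraries held 295, 262 and 295 ppm, heart ones 129 to 158 and trunk ones 171 to 212. The difference was 0.76 (SE 0.18, adjusted p = 0.0265).

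Tcf7, at chr11:52246527-52283383, overlapped between the groups. Adult barrier libraries held 98.0 to 139.8 ppm (median 113) and peripheral ones 38.8 to 135 (median 53.9), and the 2 lung libraries, at 135 and 114, lay within the barrier range. The adult log2 difference was 0.82 (SE 0.18, adjusted p = 0.000354). At P6 lung held 191 and 151 ppm, above all 6 barrier libraries at 109 to 144, and the difference of 0.27 did not pass (adjusted p = 0.192; 0.0403 with endothelial libraries only). At E12 the difference of 0.57 did not pass either (SE 0.20, adjusted p = 0.268), but did after quantile scaling (0.73, adjusted p = 0.0417) and with endothelial libraries only (0.0173).

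Axin2, at chr11:108917828-108950783, held 105 and 177 ppm in adult brain and 153 and 116 in adult retina endothelium. Adult heart, kidney and liver libraries held 21.9 to 31.3 ppm, and lung ones 87.8 and 65.3. No adult library of the periphery reached the lowest barrier one, and the log2 difference was 1.77 (SE 0.17, adjusted p = 3.51e-11). At P6 the barrier libraries held 107 to 141 ppm and the difference was 1.08 (SE 0.15, adjusted p = 2.53e-07), but lung held 133 and 136 ppm and overlapped with the barrier. The P6 difference did not pass with equal numbers of top peaks (0.42, adjusted p = 0.504) or peaks of −log10 q of at least 5 (0.85, adjusted p = 0.103). At E12 the brain libraries, at 127 to 138 ppm, lay above all 8 heart and trunk ones, at 51.3 to 97.6, with a difference of 0.81 (SE 0.19, adjusted p = 0.0178).

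Apcdd1, at chr18:62922327-62953815, held 150.4 and 179.8 ppm in adult brain and 145 and 144 in adult retina, against 47.1 to 96.1 (median 57.8) in adult peripheral endothelium. The groups did not overlap, and the log2 difference was 1.23 (SE 0.13, adjusted p = 8.53e-10). They did not overlap at P6 either, with 154 to 230.2 ppm against 60.9 to 134 and a difference of 1.13 (SE 0.12, adjusted p = 7.78e-10). At E12 the brain libraries held 149.6, 125.1 and 137 ppm, above all of heart and trunk at 56.1 to 102, and the difference was 0.64 (SE 0.15, adjusted p = 0.0163).

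Nkd1, at chr8:88521342-88594887, was the exception among the 8. Its adult signal was 209.9 and 258 ppm in brain, 112 and 65.2 in retina, 261 and 260.3 in liver, 343 and 248.6 in lung, 129 and 155 in kidney and 91.0 and 146 in heart. Brain lay beside liver and lung while retina lay beside heart, and the log2 difference between the groups was -0.39 (SE 0.32, adjusted p = 0.328). With endothelial libraries only in the fit it was called lower (adjusted p = 0.0286). With signal scaled to all tags it had the other sign, 0.41, and did not pass. Retina alone was lower than the 4 peripheral organs by 1.09 on the log2 scale (adjusted p = 0.0263), and brain alone stood at 0.30 (adjusted p = 0.697). At P6 the difference was 0.059 (SE 0.28, adjusted p = 0.916) and lung was again highest, at 284 and 270.2 ppm. At E12 the 3 brain libraries, at 155 to 179.7 ppm, lay above all heart and trunk ones, at 81.9 to 143, but the difference of 0.40 did not pass (adjusted p = 0.827).

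Notum, at chr11:120653788-120661193, held 337 and 357 ppm in adult brain and 298 and 197 in adult retina, above all 8 peripheral libraries at 117 to 184. The log2 difference was 1.03 (SE 0.20, adjusted p = 4.54e-05). At P6 the groups overlapped, with 220.5 to 365 ppm against 162 to 263, and the difference of 0.32 did not pass (adjusted p = 0.155). It passed with equal numbers of top peaks (0.88, adjusted p = 0.00465), in the 10 kb window (0.60, adjusted p = 0.0190) and with endothelial libraries only (adjusted p = 0.0201). At E12 the values were 139 to 180.3 ppm in brain against 111 to 180.1 elsewhere, with a difference of 0.13 (adjusted p = 0.944).

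Tnfrsf19, at chr14:60963834-61046855, had the largest difference among the 8 in the adult. Adult brain libraries held 219.9 and 203 ppm and retina ones 106 and 63.7. In the periphery 6 of 8 adult libraries had no peak in the window, and 1 heart and 1 lung library held 6.17 and 11.5 ppm. The log2 difference was 4.42 (SE 0.32, adjusted p = 2.07e-14), a size that depends on the 5 ppm added before the log. At P6 peripheral libraries held 4.51 to 51.9 ppm, and the barrier ones split by organ into 155 to 189.8 in brain and 62.0 to 78.4 in retina, with a difference of 1.89 (SE 0.28, adjusted p = 1.06e-06). At E12 brain held 133 to 172 ppm, heart 42.5 to 48.6 and trunk 78.3 to 105. The groups did not overlap, and the difference of 1.15 did not pass (SE 0.35, adjusted p = 0.140). It passed under 5 alternatives, among them equal numbers of top peaks (1.85, adjusted p = 0.0162) and signal scaled to all tags (1.40, adjusted p = 0.0191).

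Spock2, at chr10:60106257-60135198, held 183 and 221 ppm in adult brain and 161 and 115 in adult retina. Adult lung libraries had no peak there, kidney held 0 and 9.25 ppm, liver 30.0 and 72.5, and heart 55.98 and 58.9. The groups were apart in the adult, with a log2 difference of 3.15 (SE 0.30, adjusted p = 2.50e-11), and at P6, with 115 to 209.9 ppm against 12.1 to 45.1 and a difference of 2.23 (SE 0.26, adjusted p = 9.5e-09). At E12 brain held 86.1, 104 and 86.1 ppm against 20.2 to 73.9, again without overlap, and the difference of 0.81 did not pass (SE 0.33, adjusted p = 0.391).

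**Figure D2:**
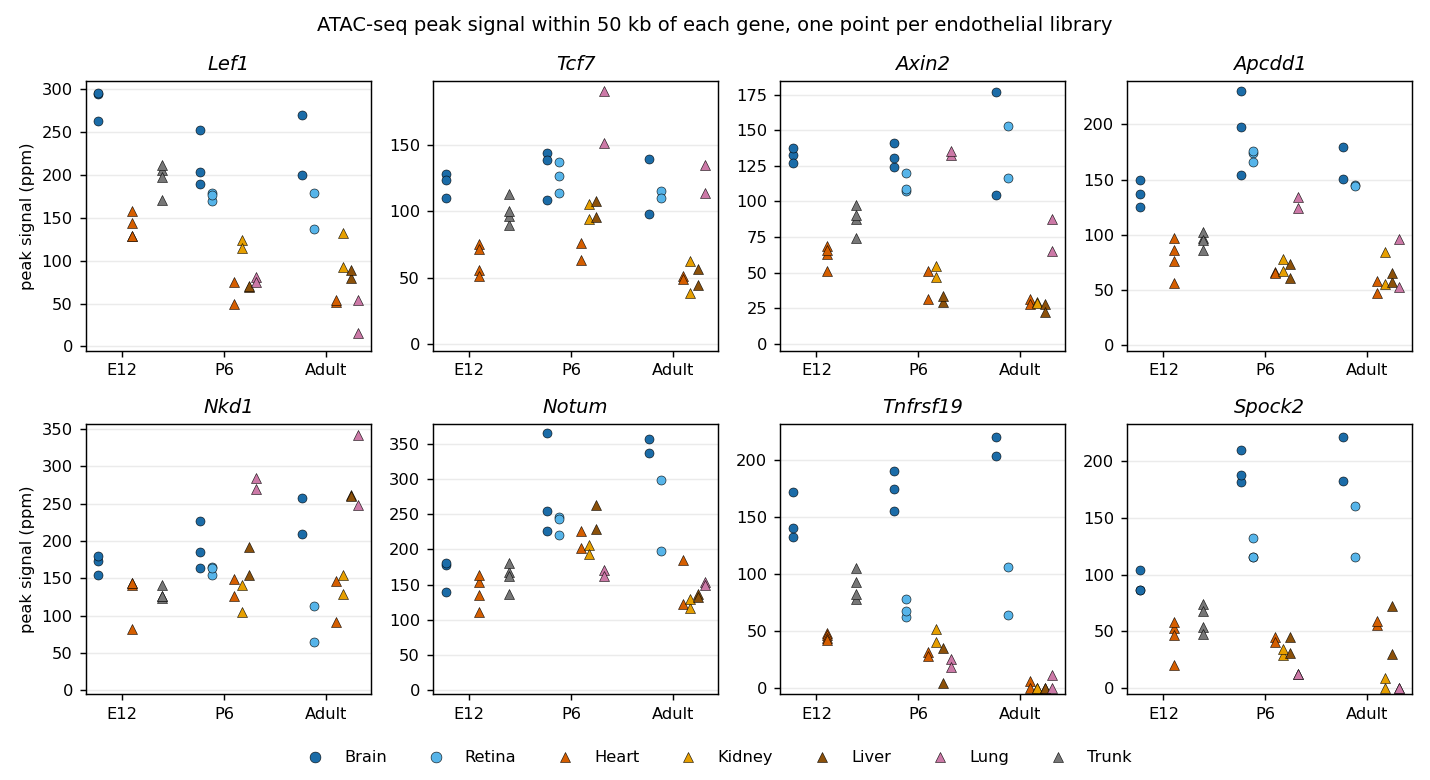
Peak signal around each of the 8 genes in every endothelial ATAC-seq library, in ppm, at E12, P6 and adult. Circles are brain and retina, triangles are heart, kidney, liver, lung and trunk, with 1 point per library. Among the adult points, those of brain and retina lie above all others for Lef1, Axin2, Apcdd1, Notum, Tnfrsf19 and Spock2. Adult lung points lie among them for Tcf7, and adult liver and lung are as high as brain for Nkd1.

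Counted over the set, every barrier library lay above every peripheral one for 6 of 8 genes in the adult (10.3% of all genes), for 4 at P6 (6.09%) and for 6 at E12 (2.96%). For none of the 8 was the order reversed, as it was for 3.15, 3.39 and 2.65% of all genes at these ages. The 3 calls at E12 rest on few libraries. None of them held when any 1 of the 3 brain libraries was left out. The adjusted p was then 0.101 to 0.211 for Lef1, 0.0982 to 0.143 for Axin2 and 0.0628 to 0.218 for Apcdd1. The log2 differences stayed at 0.73 to 0.82, 0.78 to 0.84 and 0.58 to 0.71, in the same order of genes. Without trunk 3 the adjusted p of Lef1 was 0.0502. The 7 adult and 5 P6 calls held without any single library.

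**Figure D3:**
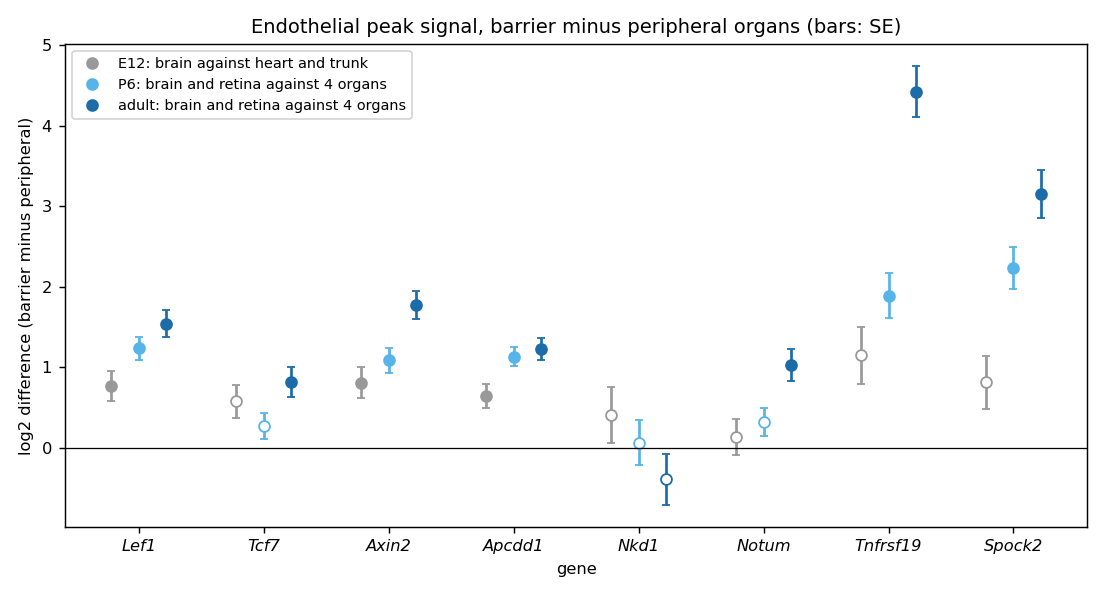
Log2 difference in peak signal, barrier minus peripheral endothelium, for the 8 genes at E12, P6 and adult. Points are limma estimates and bars 1 SE; filled points passed at an adjusted p under 0.05 and open ones did not. Tnfrsf19 goes from 1.15 at E12 to 4.42 in the adult, and Nkd1 goes from 0.40 at E12 to -0.39 in the adult, with no filled point.

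Markers of other cells were unequal between these groups too. All 6 endothelial markers had less peak signal in barrier than in peripheral endothelium in the adult (median log2 difference -1.16) and at P6 (-0.92), and none was called at E12. All 5 astrocyte markers were higher in the barrier group in the adult (median 1.90) and at P6 (1.71), as were 4 and 3 of 5 neuronal ones, with 1 lower at each age, while none of either list was at E12. Of all genes 33.2% were higher in the adult, 27.2% at P6 and 0.425% at E12 (45.5, 40.0 and 0.916% in either direction). With so few genes called at E12, the lack of calls there says little about other cells. Against input of the same organs no astrocyte marker was higher at either age. The part of these cells in the difference between organs was not tested.

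Both barrier organs carried the pattern. In the adult, brain alone passed upward for 7 genes against the periphery, where 17.7% of all genes did, with log2 differences of 5.08 for Tnfrsf19, 3.42 for Spock2, 1.82 for Lef1 and 1.79 for Axin2. Retina alone stood at 3.76, 2.87, 1.26 and 1.76 for the same genes. The share of all genes that passed for retina alone is not given here. The names of the aligned read files in the headers differ between organs, and where they do, processing and organ cannot be told apart. They also differ within groups. Of the P6 brain endothelial libraries 1 names a filter step and 2 do not, and adult retina and lung input have 1 of either kind. All 3 E12 brain endothelial libraries name the step, so the names differ in part between P6 and E12 brain too. Endothelial libraries of adult brain, kidney and liver share one kind of name, as do those of brain and trunk at E12, but these were not compared on their own. Retina and lung endothelial libraries share another kind of name. In that pair the adult differences were 4.82 for Spock2, 3.26 for Tnfrsf19, 2.23 for Lef1, 0.96 for Apcdd1 and 0.78 for Axin2 (adjusted p = 0.0266 for the last), where 21.1% of all genes passed upward. Notum did not pass, at 0.66 (adjusted p = 0.120). Tcf7 stood at -0.13 there (adjusted p = 0.855) and Nkd1 was lower in retina, at -1.71 (adjusted p = 0.00878). At P6 3 genes passed in that pair, Spock2 at 2.87, Tnfrsf19 at 1.48 and Lef1 at 1.13, against 21.2% of all genes. Apcdd1 at 0.40 (adjusted p = 0.130) and Axin2 at -0.25 (adjusted p = 0.497) did not pass.

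Against input nuclei of the same barrier organs, fewer of the genes passed. In the adult 2 were higher in endothelial libraries, against 7.44% of genes (12.8% called in either direction). Lef1 held 136 to 270.2 ppm in 4 endothelial and 54.4 to 79.3 in 3 input libraries, without overlap, with a log2 difference of 1.57 (SE 0.22, adjusted p = 1.70e-06). Tnfrsf19 held 63.7 to 219.9 ppm against 33.5 to 54.3, with a difference of 1.41 (SE 0.41, adjusted p = 0.0171). The second call was lost without retina endothelial 1 (adjusted p = 0.0933) or retina input 2 (0.0653). The other 6 genes stood between 0.32 and 0.52 and did not pass. The split of calls turns with the scaling: 58.1% of all called genes were higher in endothelial libraries, but 5.26% with signal scaled to all tags.

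At P6 5 genes were higher than in input, against 28.9% of genes (42.2% in either direction). The log2 difference was 0.97 for Tcf7 (adjusted p = 4.15e-05), 0.89 for Lef1 (3.35e-05), 0.76 for Notum (0.0015), 0.71 for Spock2 (0.0382) and 0.53 for Apcdd1 (0.00106). Tnfrsf19 at 0.68 (adjusted p = 0.0665), Nkd1 at 0.35 and Axin2 at 0.18 did not pass. Spock2 was lost on leaving out any of 8 libraries, with an adjusted p of 0.0535 to 0.0901. None of the members passed with signal scaled to all tags, with equal numbers of top peaks or for retina alone. The share of called genes that were higher was 68.4%, 18.8% with signal scaled to all tags and 54.9% after quantile scaling. At E12, with 1 brain input library, only Tcf7 passed, at 1.19 (SE 0.35, adjusted p = 0.0214), against 8.09% of genes (11.3% in either direction), with shares of 71.8, 16.3 and 55.8%. The other 7 stood between -0.27 and 0.66. With 1 input library the spread of that group cannot be measured and is taken from the other groups of the fit. The call of Tcf7 was lost with signal scaled to all tags, equal numbers of top peaks, the −log10 q filter, the 10 kb window or covered bases.

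Whether the endothelial excess over input was itself greater in barrier organs was tested as an interaction. In the adult 5 genes passed, against 11.7% of genes (16.9% in either direction): Tnfrsf19 at 3.73 (SE 0.50, adjusted p = 6.37e-07), Lef1 at 2.31 (SE 0.26, adjusted p = 2.45e-08), Axin2 at 1.19, Notum at 1.12 and Tcf7 at 0.99. Apcdd1 at 0.55 (adjusted p = 0.0665), Spock2 at 0.94 (0.169) and Nkd1 at -0.93 (0.206) did not pass. Apcdd1 passed without kidney endothelial replicate 1 (adjusted p = 0.0347) or lung endothelial replicate 1 (0.0164). Nkd1 was called lower without kidney input replicate 2 (-1.41, adjusted p = 0.000732) and with equal numbers of top peaks (-1.99, adjusted p = 0.00267). At P6 6 passed, against 22.4% of genes (28.6% in either direction): Tnfrsf19 at 1.74, Lef1 at 1.64, Tcf7 at 0.90, Notum at 0.78, Apcdd1 at 0.62 and Axin2 at 0.60. Spock2 at 0.83 (adjusted p = 0.0796) did not pass, but did without liver input replicate 4 (1.1996, adjusted p = 0.0016), with 20 ppm added or in the 10 kb window, and Nkd1 stood at 0.0063. For Lef1 the adult medians were 189 ppm in endothelium and 57.8 in input of barrier organs, and 66.9 and 106 in peripheral ones, so the order of these medians was the opposite in the 2 kinds of organ. Adult kidney did not share the peripheral order, with means of 112 ppm in endothelium and 106 in input. The same interaction over 5 astrocyte markers had a median of 1.54 in the adult, against 0.12 over all genes, with 2 called higher and none lower, and of 0.67 at P6, against 0.20. The part of astrocytes in the members' values was not tested. With signal scaled to all tags 0 of the 8 passed at either age, and the share of called genes that were higher went from 69.2% to 7.32% in the adult and from 78.5% to 49.4% at P6. After quantile scaling it was 55.4% and 58.1%.

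The members were also compared between ages within the barrier. Between adult and P6 barrier endothelium 0 of the 8 genes passed, by limma, at an adjusted p under 0.05 (2532 of 21178 genes passed, 1049 of them upward, 4.95%), and 0 at an unadjusted p under 0.05, with log2 differences of -0.30 to 0.26. Between P6 and E12 brain endothelium 0 passed as well (3385 genes passed, 1970 of them upward, 9.30%), and 3 did at an unadjusted p, with adjusted values of 0.0652 for Apcdd1, 0.0539 for Notum and 0.0673 for Spock2. The other 5 stood between -0.40 and 0.22. With signal scaled to all tags the upward share of the called genes went from 41.4% to 1.57% between adult and P6, and from 58.2% to 0.189% between P6 and E12. Between adult and P6 the gap between barrier and periphery differed for 1 gene, Tnfrsf19, by 2.53 (SE 0.43, adjusted p = 0.000229), against 2.91% of genes (4.33% in either direction). Its barrier medians were 154 ppm in the adult and 117 at P6, and its peripheral ones 0 and 30.1. Since 6 of 8 adult peripheral libraries had no peak there, the size depends on the 5 ppm added. It was 0.66 (adjusted p = 0.525) with signal scaled to all tags and 1.40 (adjusted p = 0.216) with equal numbers of top peaks, neither past the test. Axin2 at 0.69 (adjusted p = 0.0718) and Spock2 at 0.92 (0.195) did not pass, nor did Notum at 0.71, Tcf7 at 0.55, Lef1 at 0.31, Apcdd1 at 0.099 and Nkd1 at -0.45.

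The signal was then resolved into single regions, the stretches under a peak in at least 2 endothelial libraries. Of 210074 regions (median 439 bp), 213 lie within 50 kb of the 8 genes. In the adult 68 of the 213 were called higher in barrier endothelium and 6 lower, against 12.5% and 8.02% of all regions. At P6 it was 92 and 18 (22.1% and 16.8% of all), and at E12 66 and 4 (13.4% and 6.64%). Tnfrsf19 had 12 higher regions of 23 in the adult and none lower, Spock2 10 of 23, Apcdd1 10 of 30, Lef1 10 of 33 with 1 lower, Axin2 7 of 20, Tcf7 5 of 18 and Notum 5 of 23. Nkd1 differed, with 9 higher and 5 lower of 43, so both directions occur within its window.

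Of the 213 regions 8 (3.76%) were barrier-restricted, with a peak in at least 75% of the 10 postnatal barrier libraries and at most 10% of the 16 peripheral ones, against 0.603% of all regions. None was restricted to the periphery in the same way (0.360% of all regions). Since peaks at P6 and adult chose these 8, their postnatal values, those against input included, are a description with no test. All 8 had a peak in 0 of 16 peripheral libraries, and all 8 in 3 of 3 brain libraries at E12, which the choice did not use. At E12 all 8 were called higher in brain than in heart and trunk endothelium, where 13.4% of all regions and 35.4% of the 1267 barrier-restricted ones were.

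Of the 8, 4 lie near Spock2. The region at chr10:60101598-60102695, 1098 bp long and 4.11 kb before the gene, had a peak in 10 of 10 postnatal barrier libraries. It was in 3 of 8 heart and trunk libraries at E12, where the log2 difference was 3.13 (SE 0.43, adjusted p = 3.19e-07). In input it had a peak in 0 of 3 adult and 1 of 6 P6 barrier libraries, so it was nearly absent from barrier input, with a difference from input of 5.31 in the adult and 4.78 at P6. Where no input library has a peak, as in the adult here and at the 3 regions below with 0 of 3, such a size depends on the 1 ppm added before the log. The region at chr10:60153704-60154197, 47.7 kb after the start of Spock2, had a peak in 8 of 10 and in 0 of 8 heart and trunk libraries at E12. Against input it stood at 2.48 in the adult (0 of 3 input libraries) and at 2.22 at P6. The one at chr10:60115408-60116049, inside the gene, was different: it had a peak in 6 of 6 P6 and 2 of 3 adult barrier input libraries, and stood at -0.79 and -0.62 against input. The fourth, chr10:60065979-60066862, lies inside the neighbouring gene Ascc1, 39.8 kb before Spock2, with a peak in 9 of 10. Barrier input had this peak too, in 5 of 6 P6 and 2 of 3 adult libraries. Against input the fourth region stood at 1.498 in the adult and at 0.367 at P6.

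Tnfrsf19 has a pair of such regions. The one at chr14:60984768-60985476, inside the gene and 61.7 kb from its start, had a peak in 10 of 10 postnatal barrier libraries and in 4 of 8 peripheral ones at E12, with an E12 difference of 2.44 (SE 0.33, adjusted p = 2.09e-07). Against barrier input it stood at 4.17 in the adult, where 0 of 3 input libraries had it, and at 2.24 at P6, where 4 of 6 had it. The other, chr14:61085357-61086418, lies 39.0 kb before the gene, with a peak in 8 of 10. The region of Apcdd1, at chr18:62940497-62941119 inside the gene, had a peak in 2 of 4 adult and 6 of 6 P6 barrier libraries and stood at 2.02 (0 of 3 adult input libraries) and 3.23 against input. The region of Nkd1, at chr8:88494983-88495713 and 26.0 kb before the gene, had a peak in 9 of 10 barrier libraries, but also in 5 of 6 P6 and 2 of 3 adult barrier input libraries, and stood at 0.48 and 0.52 against input.

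**Figure D4:**
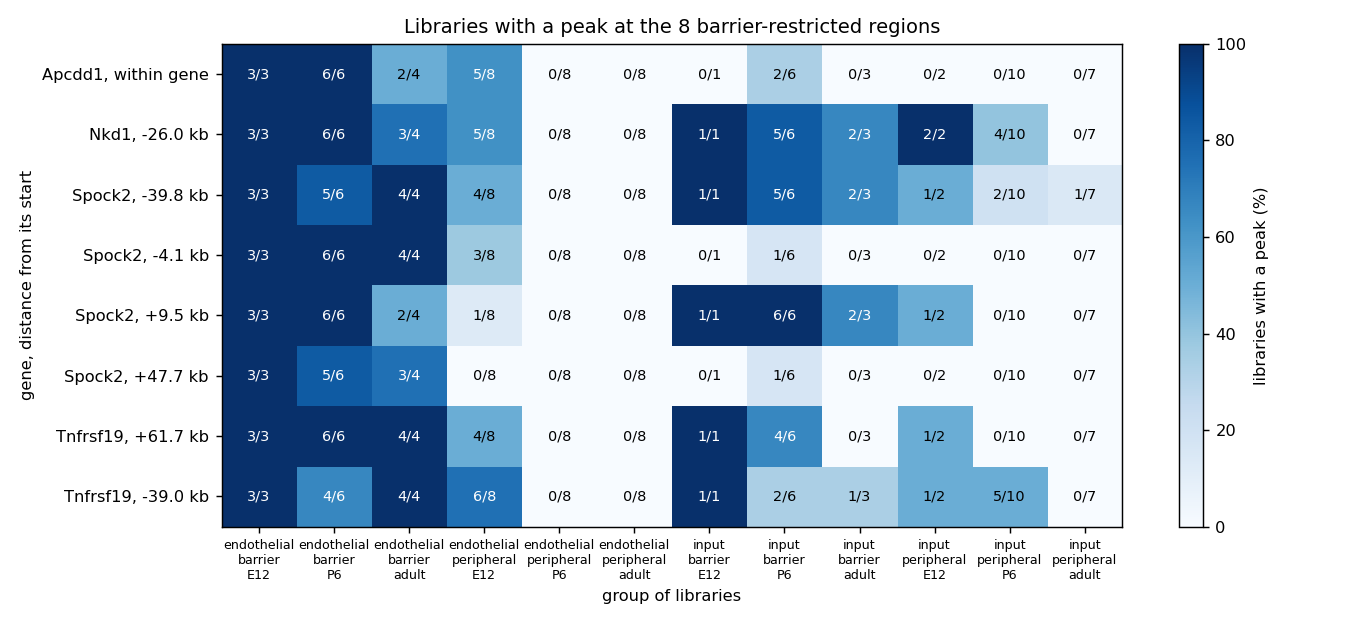
Libraries with a peak at the 8 barrier-restricted regions, as number of libraries with a peak of all libraries (colour, percent), for endothelial and input libraries of barrier and peripheral organs at E12, P6 and adult. Rows give the gene and the distance from its start in kb. Peripheral endothelium is at 0 in every row after birth, brain endothelium at E12 is at 3 of 3 in every row, and heart and trunk at E12 range from 0 to 6 of 8.

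Lef1, Axin2, Tcf7 and Notum had no barrier-restricted region. The widest adult difference near Lef1, chosen as such and given without a test, lies at chr3:131084649-131086373, 24.8 kb before the gene, at 4.47. It had a peak in 4 of 4 adult barrier libraries and 0 of 8 peripheral ones, but in 4 of 8 peripheral ones at P6 and 8 of 8 at E12. Near Tnfrsf19 the region at chr14:61012118-61013002, inside the gene, went the same way, with 0 of 8 peripheral libraries in the adult, 6 of 8 at P6 and 8 of 8 at E12. So at these regions the contrast of adult libraries is between a peak in barrier endothelium and none in the adult peripheral lists. The peripheral group at E12 was heart and trunk, not the organs of the adult group. Adult peripheral lists also held fewer peaks in all (19464 to 47334 against 39096 to 120456 at E12). The part of organs and of peak number in this contrast was not tested. Near Nkd1 the lowest region, chr8:88633250-88633966 inside Snx20, stood at -2.74, with a peak in 8 of 8 adult peripheral and 3 of 4 barrier libraries.

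At the starts themselves, a peak within 500 bp was counted. At the start of Spock2, whose promoter is printed above, 4 of 4 adult barrier libraries had a peak and 0 of 8 peripheral ones. At P6 it was 6 of 6 against 4 of 8, and at E12 3 of 3 against 7 of 8. At the inner start of Tnfrsf19, also printed, it was 4 of 4 against 0 of 8 in the adult, 6 of 6 against 6 of 8 at P6 and 3 of 3 against 7 of 8 at E12. Barrier input had the peak too, in 3 of 3 adult and 6 of 6 P6 libraries at each of these starts. In both genes the adult periphery thus lacked a start-site peak that most heart and trunk libraries had at E12. Adult peripheral lists also held fewer peaks in all than heart and trunk lists at E12 (19464 to 47334 against 39096 to 120456), and the part of this in the missing peaks was not tested. The inner start of Lef1 printed above had a peak in 1 of 4 adult and 5 of 6 P6 barrier libraries, 0 of 16 postnatal peripheral ones, and at E12 in 3 of 3 against 4 of 8.

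Other starts varied. The inner start of Axin2 at position 108920349 and the first start of Nkd1 had a peak in all 37 endothelial libraries, and the second start of Nkd1, at 88527633, in 0 of 37. The first start of Axin2, at 108917828, had one in 3 of 4 adult and 4 of 6 P6 barrier libraries and in none of the 16 peripheral ones, and barrier input had it in 2 of 3 adult and 5 of 6 P6 libraries. For Tcf7 the count was 4 of 4 against 3 of 8 in the adult and 5 of 6 against 7 of 8 at P6. The first start of Lef1, at 131110297, had 0 of 4 against 0 of 8 in the adult and 2 of 6 against 0 of 8 at P6. Its start at 131112791 had 4 of 4 against 2 of 8, and 6 of 6 against 8 of 8. The strands of Apcdd1 and Notum were not given, so both ends were counted. The lower end of Apcdd1 had a peak in all 37 libraries. The upper end of Notum had 3 of 4 against 0 of 8, and 6 of 6 against 8 of 8.

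The other pathway genes were compared the same way. Of 16 other targets and barrier outputs, 11 had more adult peak signal in barrier endothelium and 2 less, with a median log2 difference of 1.09 against 0.17 over all genes. The sizes were 3.74 for Mfsd2a, 3.40 for Foxf2 and 3.09 for Slco1c1, while Sox17 stood at -0.99 and the tight-junction gene Cldn5 at -0.77. Of 11 feedback genes and antagonists 6 were higher, among them Sfrp1 at 2.04 and the ligase gene Rnf43 at 1.32, and 2 lower. Of 14 transduction genes 6 were higher and 2 lower, with a median of 0.17. The receptor group, with its ligand genes, went both ways. Of 11 genes 4 were higher, led by Reck at 1.28, and 5 lower, led by Tspan12 at -2.003, Fzd8 at -0.90 and Fzd4 at -0.86.

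Over all genes 33.2% were higher in the adult and 45.5% were called in either direction, and at P6 27.2% and 40.0%. At P6 the counts were 11 higher and 3 lower for outputs, 5 and 1 for feedback genes, 4 and 2 for transduction and 1 and 4 for receptors. At E12 the genes higher in brain included Slc2a1 at 0.62 and the ligase gene Znrf3 at 0.64. Of all genes 0.425% were higher at that age and 0.916% were called in either direction. None of the 52 was lower, which says little where so few genes were called. Against barrier input in the adult, 10 of 16 outputs were higher and none lower, and 4 of 11 receptor genes were higher and 1 lower. Of 11 feedback genes 1 was higher and 1 lower, and of 14 transduction genes 1 was higher, where 7.44% of all genes were higher and 12.8% were called in either direction.

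Over the 37 endothelial libraries, the genes whose log2 peak signal ran most like a member were Slc35f2 for Tnfrsf19 (Pearson r = 0.959), Arhgef10 for Lef1 (0.890), Bpgm for Apcdd1 (0.889), Sgpp2 for Axin2 (0.874), Tpra1 for Tcf7 (0.854), Kif5b for Spock2 (0.834), Syt12 for Notum (0.823) and Tmem156 for Nkd1 (0.787). These libraries share organs and ages, and the r is a description. Between members it was highest for Axin2 with Apcdd1 (0.853), Tcf7 with Axin2 (0.804) and Lef1 with Tnfrsf19 (0.792). Nkd1 stood apart, with r from -0.183 to 0.343 with the other 7.

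In RNA over the 5 brain libraries, likeness was the root mean squared difference of centred log2(CPM + 5). The gene nearest to Tnfrsf19 was again Slc35f2 (0.112), at 0.787, 10.45, 52.2, 53.7 and 41.6 CPM from E9.5 to adult. The nearest to Lef1 was App (0.123), to Tcf7 Socs2 (0.101), to Axin2 Sdpr (0.0958), to Apcdd1 Pomc (0.176), to Nkd1 Tspan13 (0.126) and to Notum Bsg (0.288). Spock2 had no close match: the nearest, Pltp, differed by 0.424, with 5.38 CPM at E9.5 and 2900 in the adult.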

How the data were processed

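The members, gene lists and comparisons were chosen with earlier results of these data known. Per the submitters' processing notes, reads were aligned to mm10, with Bowtie2, SAMtools 1.13, Picard, MACS2 and Cell Ranger among the tools named. Per the file headers, the authors called broad peaks in each ATAC-seq library alone with MACS2 2.1.2 (shift -100, extension 200, q-value 0.05 and 0.1). The deposited peak lists give a pileup signal, not scaled between libraries, and the −log10 of the q-value of each peak. The deposited single-cell matrices hold UMI counts per gene and barcode. The deposited files of the library labelled E16.5 bear the name of an age 1 day later, and the label was kept. The gene table of the E16.5 matrix was not used here, and its 27998 rows were taken to follow the order of the other tables.

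Gene positions came from RefSeq (GRCm38.p6). Signal per gene was summed and scaled as the report says, and genes with a peak in fewer than 2 of 66 libraries were left out. One limma 3.58.1 fit (R 4.3.3, with trend, 36 residual degrees of freedom) over all 66 libraries had 1 mean per organ, age and kind. Contrasts weighted organs equally, and calls were made at an adjusted p under 0.05. Regions were fitted likewise on log2(ppm + 1). The scripts were tested on simulated data.

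Barcodes needed at least 200 genes and at most 10% mitochondrial UMIs, and marker-free barcodes had none of the 6 markers. No doublet caller was run, and barcodes with markers of another type were left out as an alternative. Intervals are exact (Poisson, binomial) and cover counting error only. Ratios of 2 libraries have exact conditional binomial intervals. All 8 members entered every tested comparison, and those not named in one stand in its counts or ranges. Peaks at starts and vessel classes before the adult are given for a part of the starts or members only. Members named in vessel classes before the adult were chosen after their values were seen. Pathway genes were named where called, at most 6 per direction by size. The values of 1 pathway gene are not reported here. The alternatives were the scaling (signal scaled to all tags, quantile), the pseudocount (1 or 20 ppm), the window (10 kb), peaks of −log10 q of at least 5, equal numbers of top peaks, covered bases, endothelial libraries only, each barrier organ alone, retina against lung, single libraries left out, the replicate number as a block, and filters on barcodes. Replicate numbers were not taken to pair samples. Deviations from the group means of same-numbered libraries correlated above 0.1 in 8 of 20 cases (-0.416 to 0.371). Where both kinds have 2 libraries, the 2 values are equal by construction, so the 20 are not independent. Kidney stood at 0.256 to 0.347 and adult liver at 0.199, and whether the numbers pair samples there was not tested. Analyses used Python 3.11.15, numpy 2.4.6, scipy 1.17.1 and pandas 2.3.3.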

Additional observations from a re-analysis of the deposited data

Results flagged for a closer look

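At E12, Nkd1 peak signal in heart endothelial replicate 3 was 81.9 ppm, far from the 141.4, 143.3 and 143.1 ppm of the other 3 heart libraries. That library has 39096 peaks and 10.1 M (mega) tags, against 101219 to 120456 peaks and 25.0 to 33.9 M tags in the other 3, and the part of depth was not tested. With 8 genes in the 2 groups of 4 libraries (heart and trunk at E12), 16 sets of values were examined. Chance flags about 1 in 20 such sets, so 1 of 16 is near what chance gives.

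For the members below, the endothelial difference from input was not the same in barrier and peripheral organs, by limma's interaction over 16 tests, 8 at each age. Of all genes 11.7% were called higher in the adult and 22.4% at P6. With signal scaled to all tags none of the members passed at either age. In the adult the log2 difference of the differences was 3.73 for Tnfrsf19, 2.31 for Lef1, 1.19 for Axin2, 1.12 for Notum and 0.99 for Tcf7. At P6 it was 1.74 for Tnfrsf19, 1.64 for Lef1, 0.90 for Tcf7, 0.78 for Notum, 0.62 for Apcdd1 and 0.60 for Axin2. The last was lost without brain input 1 (adjusted p = 0.0894), heart endothelial 1 (0.0600) or retina input 3 (0.0588), so it rests on single libraries. For Tnfrsf19 the gap between barrier and peripheral endothelium also differed between adult and P6, by 2.53. It was 0.66 (adjusted p = 0.525) with signal scaled to all tags and 1.40 (adjusted p = 0.216) with equal numbers of top peaks.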

How the results depend on the processing

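Counts here are of members called in either direction. The share of all genes called is not given beside them. They show how the member calls move with the processing, not whether the members stand out from other genes. In the adult, barrier against peripheral endothelium gave 5 to 8 members under 15 alternatives (5 with equal numbers of top peaks, 8 with endothelial libraries only and for retina alone, where Nkd1 was called lower), and at P6 3 to 7, with 3 for retina against lung. Lef1 in the adult was lost with equal numbers of top peaks (1.33, adjusted p = 0.0585), Tcf7 there too (0.52) and with peaks of −log10 q of at least 5 (0.64). At E12 the count of 3 became 1 with signal scaled to all tags (Tnfrsf19 in place of Lef1, Axin2 and Apcdd1), 5 after quantile scaling, 0 with the −log10 q filter, 0 with covered bases and 5 with endothelial libraries only. Against barrier input the adult count of 2 became 1 with a pseudocount of 1, quantile scaling, equal top peaks (Spock2 in place of Lef1 and Tnfrsf19), covered bases or retina alone, and 0 with signal scaled to all tags or the −log10 q filter. The P6 count of 5 became 0 with signal scaled to all tags, equal top peaks or retina alone, and 1 with the −log10 q filter. The E12 count of 1 became 0 with signal scaled to all tags, equal top peaks, the −log10 q filter, the 10 kb window or covered bases. Brain P6 against E12 went from 0 to 3 with a pseudocount of 20, to 2 with endothelial libraries only, and to 1 with signal scaled to all tags or quantile scaling (Lef1 lower, at -1.33 and -0.66), equal top peaks or the 10 kb window (Spock2 higher). The interaction with input went from 5 in the adult to 0 with signal scaled to all tags, 3 after quantile scaling, 2 with equal top peaks and 1 with the −log10 q filter. At P6 it went from 6 to 0 with signal scaled to all tags and to 3 with equal top peaks, the −log10 q filter or covered bases. The interaction with age went from 1 to 0 with signal scaled to all tags or equal top peaks, to 2 with the 10 kb window or covered bases, and to 4 with endothelial libraries only. In RNA from E16.5 to P8 the count of 1 became 2, with Spock2 added, with at most 5% mitochondrial UMIs, without barcodes over 3 times the median UMI count, or thinned to 1000 UMIs.

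Among members called as reported, the direction turned in 6 cases. Tcf7 in the adult stood at -0.13 and Axin2 at P6 at -0.25 for retina against lung. Spock2 against input at P6 stood at -0.31, and the adult interaction of Tcf7 at -0.0072, with the −log10 q filter. The interaction of Axin2 in the adult stood at -0.0029 and that of Tcf7 at P6 at -0.41 with equal top peaks. The cause was not tested for any of these changes.

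Leaving out 1 library at a time gave 7 to 7 members in the adult, 5 to 5 at P6 and 0 to 3 at E12. Against input it gave 1 to 2 in the adult, 4 to 5 at P6 and 1 to 1 at E12. It gave 0 to 0 between adult and P6, and 0 to 2 between P6 and E12, where Apcdd1 and Notum passed without brain endothelial P6 replicate 2. The interactions gave 5 to 6 in the adult, 5 to 7 at P6 and 1 to 2 for age, where Axin2 was added without brain endothelial adult 1, heart endothelial P6 1 or lung endothelial adult 1. Higher regions numbered 64 to 73 in the adult, 82 to 103 at P6 and 49 to 68 at E12.

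With the replicate number as a block the counts were 7 in the adult, 5 at P6 and 3 at E12, 2, 5 and 1 against input, 0 and 0 between ages, and 5, 6 and 1 for the interactions, as without it. Higher regions numbered 68, 87 and 65 with the block. With the numbers of adult retina and adult lung input crossed, the E12 count was 2 and the other counts were the same. Brain alone, retina alone, retina against lung, the crossed block, the alternatives for regions and those for marker-free barcodes were chosen after seeing the data.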
